A study of Mus musculus with 20 samples.

Results

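The SLC25 carriers are a family of membrane proteins, most of them of the mitochondrial inner membrane, and their genes were examined for RNA in mice in which Taz was knocked down. Members were the protein-coding genes of both count tables whose symbol starts with Slc25a, without Slc25a20, and 46 of the 46649 genes shared by the tables met this rule. They were placed in 10 classes by the substrate known for the protein. Slc25a5-ps, a pseudogene, was left out, and Ucp1, Ucp2, Ucp3, Mtch1 and Mtch2, which belong to the same protein family under other symbols, are given only beside the members.

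Most of these carriers move metabolites, nucleotides, cofactors or ions across the inner membrane, many by exchanging one for another, and Slc25a46 sits in the outer membrane. The ADP/ATP carriers export the ATP made by oxidative phosphorylation, the phosphate carrier brings in its phosphate, and the oxoglutarate and aspartate/glutamate carriers form the malate-aspartate shuttle that moves reducing equivalents into the matrix. Taz encodes tafazzin, the enzyme that remodels cardiolipin, the phospholipid of the inner membrane that surrounds these carriers. Heart and skeletal muscle are rich in mitochondria and rely on the ADP/ATP carrier Slc25a4.

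RNA was sequenced from heart tissue of 5 WT mice and 5 Taz-KD mice at an age of 20 weeks. Femur muscle came from 5 WT and 5 Taz-KD mice of the same age, under other sample numbers. Whether any mouse gave both tissues was not given in the sources used here. Whether each heart sample held the whole organ was not given in the sources used here. WT mice were C57BL/6N. Taz-KD mice carried the transgene ROSA26H1/tetO-shRNA:TAZ, which makes a hairpin RNA against Taz when induced by doxycycline, so that the knockdown was systemic and not limited to muscle cells. Both genotypes ate chow with 625 mg/kg doxycycline until the end. WT mice lacked the transgene, so the knockdown and the presence of the transgene cannot be told apart.

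Heart libraries held 26963288 to 35301909 counts and muscle libraries 36429399 to 74361382. Levels are in CPM, reads relative to the TMM-scaled total of the library, given as mean ± SD with n = 5 mice per genotype and tissue. Taz averaged 37.8 ± 1.40 CPM in WT hearts against 11.7 ± 0.731 CPM in Taz-KD hearts, and 51.7 ± 3.42 and 13.4 ± 1.05 CPM in muscle, with no overlap in either tissue (p = 0.00794 by an exact permutation test, two-sided, which can give no smaller p). The 6 markers of cardiomyocytes summed to between 31744 and 44353 CPM in every heart, and the 6 markers of skeletal fibres to between 52755 and 176430 CPM in every muscle. Markers of other cells stood out in some libraries. In hearts, Ucp1, which marks brown adipocytes, was above 1 CPM in Taz-KD mouse R1793 and in WT mouse R3, the latter at 8.40 CPM. In muscle, 5 adipocyte markers summed to 2919, 1304 and 655 CPM in WT mice A33, A55 and A51 and to between 165 and 350 CPM in the other 7. In whole tissue, fewer cells of a type and less RNA per cell cannot be told apart.

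In WT hearts, RNA of the family was dominated by the carriers of oxidative phosphorylation. Per kilobase of exon, Slc25a4, the ADP/ATP carrier of muscle, measured 951 CPM per kilobase and made up 57.9% ± 2.10 of the summed level of all members. It was followed by the phosphate carrier Slc25a3 with 166, the oxoglutarate carrier Slc25a11 with 128, the second ADP/ATP carrier Slc25a5 with 89.2 and Slc25a34, whose substrate is uncertain, with 64.0 CPM per kilobase. The libraries of neighbours in this order did not overlap among the first 4. Those of Slc25a5 (78.3 to 109) and Slc25a34 (54.2 to 81.0 CPM per kilobase) did overlap. The aspartate/glutamate carriers Slc25a13 (38.5 CPM per kilobase) and Slc25a12 (24.4) and the glutathione carrier Slc25a39 (23.4) came next.

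In WT muscle the first 3 members were the same, with 1378 CPM per kilobase for Slc25a4, 147 for Slc25a3 and 91.6 for Slc25a11. Slc25a4 took 72.6% ± 2.54 of the summed level of all members there. The aspartate/glutamate carrier was nearly all Slc25a12 in muscle, where the ratio of Slc25a13 to Slc25a12 per kilobase was 0.00742 ± 0.00627, against 1.58 ± 0.156 in heart. Slc25a5 measured 28.6 CPM per kilobase. Slc25a31, the ADP/ATP carrier of germ cells, had 0 counts in all 10 muscles.

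Of the 46 members, 41 passed the filter on low counts in heart and were tested, and 15 of them changed in Taz-KD (adjusted p under 0.05, edgeR). This is 36.6% of those tested, against 24.6% of all genes. Slc25a39, Slc25a5, Slc25a33, Slc25a23, Slc25a44 and Slc25a36 rose, 6 members where 14.4% of all genes rose. Slc25a34, Slc25a29, Slc25a47, Slc25a24, Slc25a42, Slc25a11, Slc25a10, Slc25a26 and Slc25a4 fell, 9 members where 10.3% of all genes fell. At mean levels of 10 CPM or more, 11 of 29 members changed, near the background of 34.8%. The median log2 fold change was -0.03 over the 41 members and -0.02 over all genes tested. The genotypes did not overlap for 10 of the members, against 18.3% of all genes. In 1 fit of all 20 libraries of both tissues, which share an estimate of the spread, 3 members were higher and 5 lower in heart, against 10.1% of all genes changed. The members that no longer passed there were Slc25a34 (adjusted p = 0.093), Slc25a10 (0.595), Slc25a47 (0.0545), Slc25a4 (0.147), Slc25a23 (0.105), Slc25a36 (0.11) and Slc25a44 (0.143). The members did not move one way as a family, and the largest differences lay in a few of them.

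**Figure D1:**
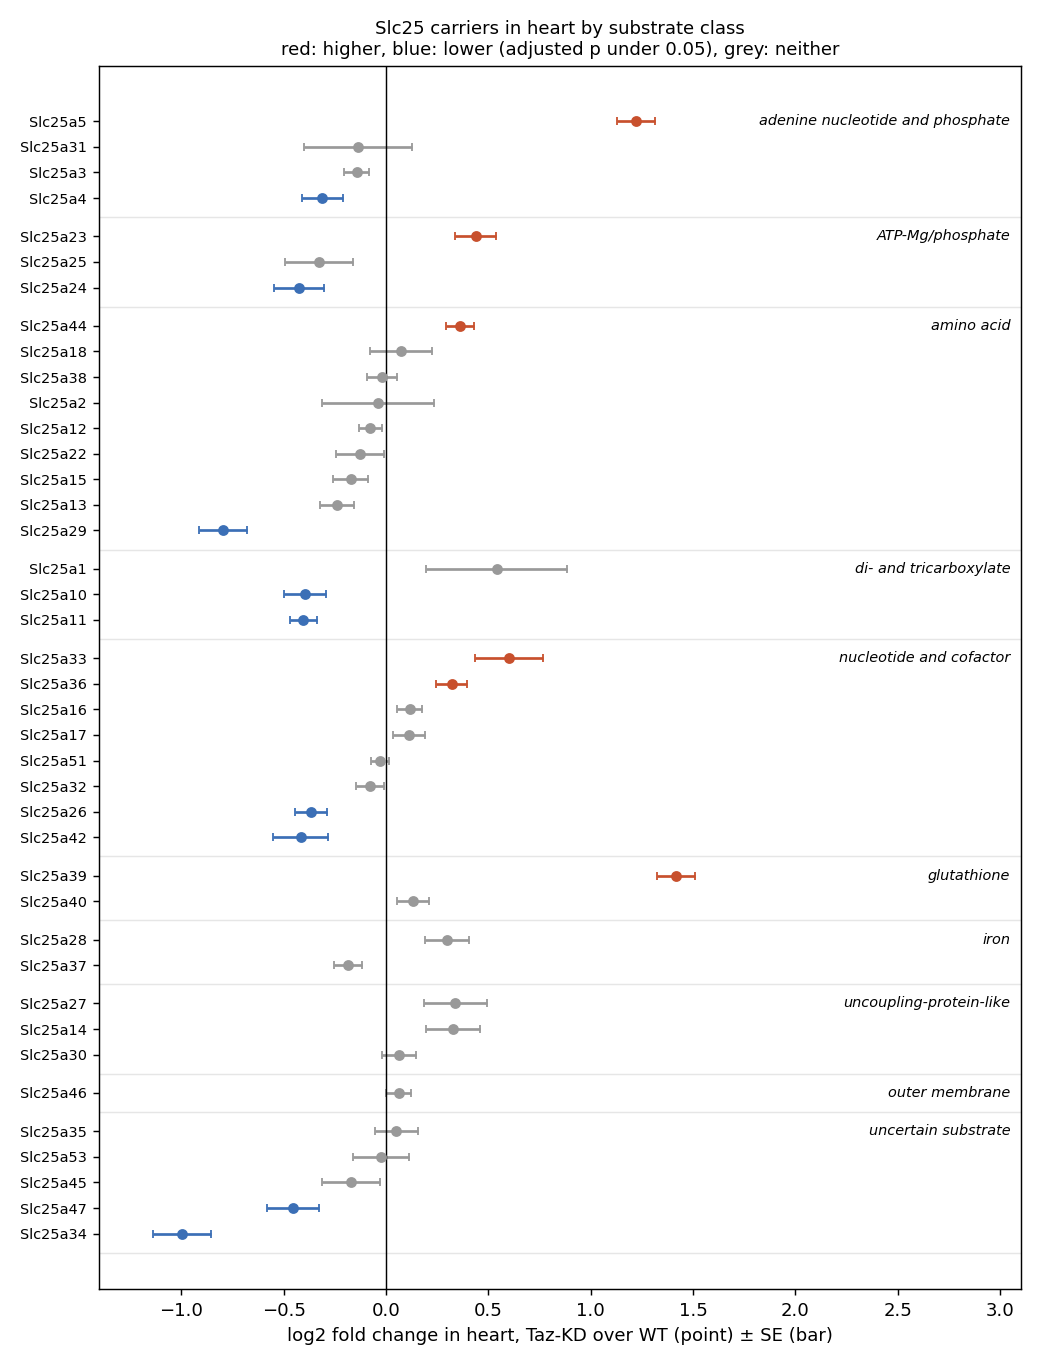
The log2 fold change of Taz-KD over WT in heart (point) with its standard error (bar) for 40 of the 41 members tested, grouped by substrate class. Red members were higher and blue members lower with an adjusted p under 0.05. Slc25a39 (1.42) and Slc25a5 (1.22) lie farthest to the right and Slc25a34 (-0.996) and Slc25a29 (-0.79) farthest to the left.

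The carriers of adenine nucleotides and phosphate split. Slc25a5, which is the ADP/ATP carrier of dividing and many other cells, measured 131, 141, 129, 153 and 180 CPM in WT hearts and 333, 355, 357, 312 and 355 CPM in Taz-KD hearts. Every Taz-KD heart lay far above every WT heart. The mean rose from 147 ± 20.8 to 342 ± 19.4 CPM (log2 fold change 1.22 ± 0.09 SE, adjusted p = 1.63e-06). Slc25a4 (chromosome 8, 46206797 to 46211284) measured 1926, 2183, 2098, 2416 and 2563 CPM in WT and 2002, 1538, 1849, 1655 and 1981 CPM in Taz-KD hearts. The genotypes overlapped, and the fall from 2237 ± 254 to 1805 ± 203 CPM passed narrowly (log2 fold change -0.31 ± 0.10 SE, adjusted p = 0.0398). It no longer passed when 1 of 7 mice was left out, 4 WT (R1791, R1792, R1795, R1800) and 3 Taz-KD (R1793, R1796, R1797), with adjusted p between 0.0593 and 0.0988. Slc25a3, the phosphate carrier, measured 920 ± 37.9 CPM and 833 ± 42.6 CPM in WT and Taz-KD hearts and did not pass (adjusted p = 0.115), nor did Slc25a31.

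As a description, Slc25a5 made up 8.56% ± 0.432 of the 3 ADP/ATP carriers per kilobase in WT hearts and 21.4% ± 2.08 in Taz-KD hearts, with no overlap. Their summed level, 1040 ± 120 in WT and 976 ± 88.9 CPM per kilobase in Taz-KD hearts, overlapped between genotypes. The share of Slc25a4 in all members was 57.9% ± 2.10 in WT and 49.8% ± 2.50 in Taz-KD hearts. In muscle the share of Slc25a5 among the ADP/ATP carriers was 2.10% ± 0.825 in WT and 1.83% ± 0.194 in Taz-KD, and the genotypes overlapped. Of the stretches of 100 bases in transcripts of Slc25a5, 8.33% also occur in transcripts of 4 pseudogenes, so part of its reads could have been assigned otherwise.

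**Figure D2:**
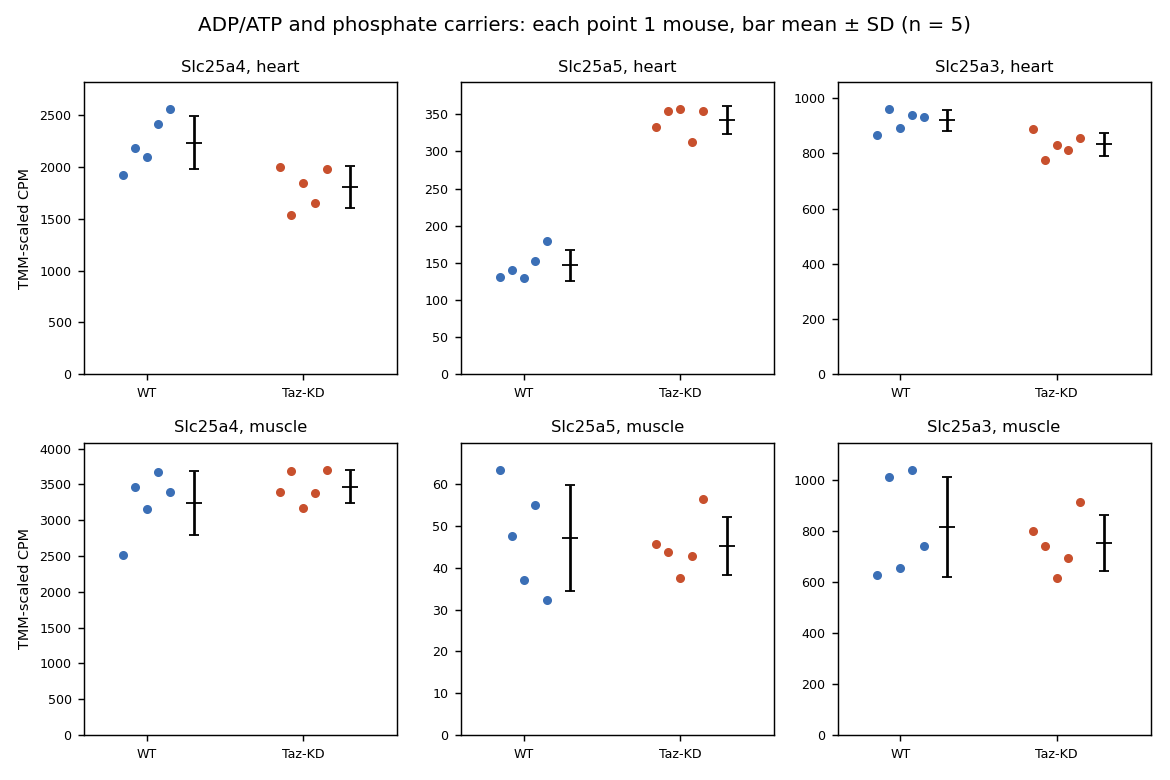
Slc25a4, Slc25a5 and Slc25a3 in heart (upper row) and muscle (lower row), in TMM-scaled CPM. Each point is 1 mouse and the bar is the mean ± SD of 5. Slc25a5 is the panel whose genotypes separate, in heart, where WT spans 129 to 180 CPM and Taz-KD 312 to 357 CPM.

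Of the glutathione carriers, Slc25a39, which imports glutathione into the matrix, rose most of all members. It measured 61.9, 58.9, 67.4, 67.7 and 66.7 CPM in WT hearts and 156, 188, 203, 171 and 142 CPM in Taz-KD hearts. Each Taz-KD heart had more than any WT heart. The mean rose 2.67-fold from 64.5 ± 3.91 to 172 ± 24.3 CPM (log2 fold change 1.42 ± 0.09 SE, adjusted p = 4.97e-07). Its paralog Slc25a40 measured 14.1 ± 1.03 and 15.4 ± 1.35 CPM and did not pass (adjusted p = 0.256). The ratio of Slc25a39 to Slc25a40 per kilobase was 14.0 ± 1.49 in WT and 34.4 ± 6.77 in Taz-KD hearts, without overlap.

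Slc25a34 had the largest fall in heart. It measured 147, 216, 186, 160 and 145 CPM in WT hearts and 91.3, 67.1, 72.8, 103 and 94.2 CPM in Taz-KD hearts. All Taz-KD hearts lay below all WT hearts, and the Taz-KD mean was 50.1% of the WT mean (log2 fold change -0.996 ± 0.14 SE, adjusted p = 0.000415). It lost this call in the fit of all 20 libraries. Slc25a47, another carrier of uncertain substrate known mainly from liver, was low, with 1.74 to 2.10 CPM in Taz-KD and 2.32 to 2.98 CPM in WT hearts, and fell by 0.45 ± 0.13 SE on the log2 scale (adjusted p = 0.0196). It rested on 56 to 86 counts per heart, and the call was lost without R1792 (adjusted p = 0.05), with no filter on low counts (0.0674) and in the fit of all 20 libraries. Of the other members of uncertain substrate, Slc25a35, Slc25a45 and Slc25a53 did not pass, and Slc25a43, Slc25a48 and Slc25a54 were not tested, with at most 20 counts in any heart.

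The sequence before the start of Slc25a39 and Slc25a5, the members with the largest rise, and of Slc25a34, with the largest fall, is shown because these genes moved most. It is taken from RefSeq windows on GRCm38.p6 that run from 250 bases before to 50 bases after each start, limited to 200 bases outside annotated exons. Capitals mark a CCAAT box on either strand.
Slc25a39, chr11:102407545-102407744, minus strand: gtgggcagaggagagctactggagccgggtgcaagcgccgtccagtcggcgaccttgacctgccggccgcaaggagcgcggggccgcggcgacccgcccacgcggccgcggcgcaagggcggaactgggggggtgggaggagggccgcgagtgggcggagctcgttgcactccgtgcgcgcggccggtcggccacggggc
Slc25a5, chrX:36795397-36795596, plus strand: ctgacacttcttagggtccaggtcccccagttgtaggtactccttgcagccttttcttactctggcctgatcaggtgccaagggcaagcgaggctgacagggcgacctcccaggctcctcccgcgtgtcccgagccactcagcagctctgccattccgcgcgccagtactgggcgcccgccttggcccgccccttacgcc
Slc25a34, chr4:141623835-141624034, minus strand: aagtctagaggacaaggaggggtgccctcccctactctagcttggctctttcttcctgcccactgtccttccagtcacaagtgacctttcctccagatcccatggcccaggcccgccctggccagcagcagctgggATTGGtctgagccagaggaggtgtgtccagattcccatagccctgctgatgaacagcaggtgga
The stretch of Slc25a39 was 78.0% G and C with 30 CG dinucleotides, that of Slc25a5 65.0% with 12, and that of Slc25a34 59.0% with 1. Motifs were searched in the full windows, which reach beyond the stretches shown and can include exons. The core of the C/EBP-ATF response element that ATF4 binds, TGATGNAA on either strand, occurred in 0 of the 35 member windows that RefSeq held and in 4.51% of 27025 genes. This says only that these letters were not in these windows. The CCAAT box, chosen with the values known, occurred in 54.3% of the 35 members and in 41.1% of all genes, and in the full windows of 10 of the 13 changed members that had one. In 7 of the 13 it lay within the up to 200 bases before the start and outside exons. The share of all genes was not counted for such stretches, so this count has no background. The cyclic AMP response element TGACGTCA, also chosen with the values known, occurred in Slc25a25 and Slc25a36, 5.71% of the members against 2.03% of all genes. Also searched were the TATA box TATAAA, in Slc25a18 and Slc25a21 (5.71% against 15.7%), and the estrogen-related receptor element TCAAGGTCA. The latter occurred in 0 of the 35 members and in 0.466% of all genes.

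Among the 9 amino acid carriers, 1 rose and 1 fell in heart. Slc25a29, which carries arginine, lysine and ornithine, measured 5.44, 5.45, 6.93, 5.64 and 7.32 CPM in WT and 3.64, 3.88, 3.47, 3.58 and 3.18 CPM in Taz-KD hearts. The genotypes did not overlap, and the mean fell to 57.7% of WT (log2 fold change -0.79 ± 0.12 SE, adjusted p = 0.000384). Slc25a44, which carries branched-chain amino acids, measured 18.2, 17.3, 18.4, 18.4 and 18.4 CPM in WT and 22.3, 25.8, 24.7, 23.4 and 20.4 CPM in Taz-KD hearts, again without overlap (log2 fold change 0.36 ± 0.07 SE, adjusted p = 0.00248, but 0.143 in the fit of all 20 libraries). The aspartate/glutamate carriers did not pass. Slc25a12 measured 179 ± 11.1 and 170 ± 4.79 CPM (adjusted p = 0.356), and Slc25a13 146 ± 14.4 and 124 ± 11.9 CPM (adjusted p = 0.0505, just above the threshold). Slc25a2, Slc25a15, Slc25a18, Slc25a22 and Slc25a38, which carry ornithine, glutamate or glycine, did not pass either.

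Of the carriers of di- and tricarboxylates, 2 of 3 tested fell. Slc25a11, which exchanges oxoglutarate for malate, measured 258, 275, 251, 295 and 276 CPM in WT and 221, 187, 216, 199 and 202 CPM in Taz-KD hearts. The genotypes did not overlap, with means of 271 ± 17.4 and 205 ± 13.6 CPM (log2 fold change -0.40 ± 0.07 SE, adjusted p = 0.000827). Slc25a10, the carrier of malate and succinate, measured 10.8, 8.23, 8.48, 9.84 and 10.3 CPM in WT and 7.18, 8.40, 6.50, 7.35 and 6.82 CPM in Taz-KD hearts. A single Taz-KD heart, R1793, lay within the WT range (log2 fold change -0.39 ± 0.10 SE, adjusted p = 0.0148). The call was lost without R2 and R3 (adjusted p = 0.0663) and in the fit of all 20 libraries (0.595). Slc25a1, the citrate carrier, did not pass (adjusted p = 0.292). Its highest values of each genotype, 16.6 CPM in R1793 and 10.4 CPM in R3, stood in the hearts with Ucp1 RNA, and the part of brown fat in them was not tested. Slc25a21, the oxodicarboxylate carrier, was not tested, with at most 7 counts in any heart.

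The ATP-Mg/phosphate carriers, which set the adenine nucleotide content of the matrix, moved apart. Slc25a23 measured 44.2, 44.0, 42.8, 41.8 and 44.5 CPM in WT and 49.1, 75.2, 58.8, 50.7 and 61.0 CPM in Taz-KD hearts. All Taz-KD hearts lay above the narrow range of WT, with the highest value in R1793 (log2 fold change 0.44 ± 0.10 SE, adjusted p = 0.00687, but 0.105 in the fit of all 20 libraries). Slc25a24 fell from 10.3 ± 1.39 to 7.67 ± 1.04 CPM (log2 fold change -0.42 ± 0.12 SE, adjusted p = 0.0216), with overlap. That call was lost without R3, R1792, R2 or R1796, each left out alone, at adjusted p between 0.0513 and 0.0535. Slc25a25 did not pass, and Slc25a41 had at most 2 counts in any heart.

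Of the 9 carriers of nucleotides and cofactors, 2 rose and 2 fell in heart. The pyrimidine nucleotide carriers were the ones that rose. Slc25a36 measured 70.1, 71.0, 65.3, 71.1 and 61.1 CPM in WT and 89.5, 77.8, 98.3, 76.7 and 80.8 CPM in Taz-KD hearts, without overlap (log2 fold change 0.32 ± 0.08 SE, adjusted p = 0.00901, but 0.11 in the fit of all 20 libraries). Slc25a33 ranged from 21 to 32.9 CPM in WT and from 31.4 to 55.1 CPM in Taz-KD hearts (log2 fold change 0.60 ± 0.17 SE, adjusted p = 0.0226), and it overlaps the antisense gene Gm13068 over 14.9% of its exon bases. The call of Slc25a33 was lost without R1795 (adjusted p = 0.0548) and without R2 and R3 together (0.054). Slc25a26, which brings S-adenosylmethionine into the matrix, measured 16.6, 19.4, 17.8, 20.8 and 19.7 CPM in WT and 15.3, 14.0, 14.8, 13.3 and 15.9 CPM in Taz-KD hearts. All Taz-KD hearts lay below WT (log2 fold change -0.36 ± 0.08 SE, adjusted p = 0.005). Slc25a42, the coenzyme A carrier, fell from 85.5 ± 11.2 to 64.1 ± 12.9 CPM with overlap (log2 fold change -0.42 ± 0.13 SE, adjusted p = 0.0415). Its call was lost without any 1 of R1791, R1792, R1795, R2, R1793 and R1796, at adjusted p between 0.0708 and 0.113. The call of Slc25a42 was also lost with library sizes alone (adjusted p = 0.0709), with no filter on low counts (0.0954) and without R2 and R3 together (0.0942). The NAD carrier Slc25a51 measured 83.7 ± 1.14 and 82.1 ± 2.39 CPM in WT and Taz-KD and did not pass, nor did Slc25a16, Slc25a17 and Slc25a32.

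**Figure D3:**
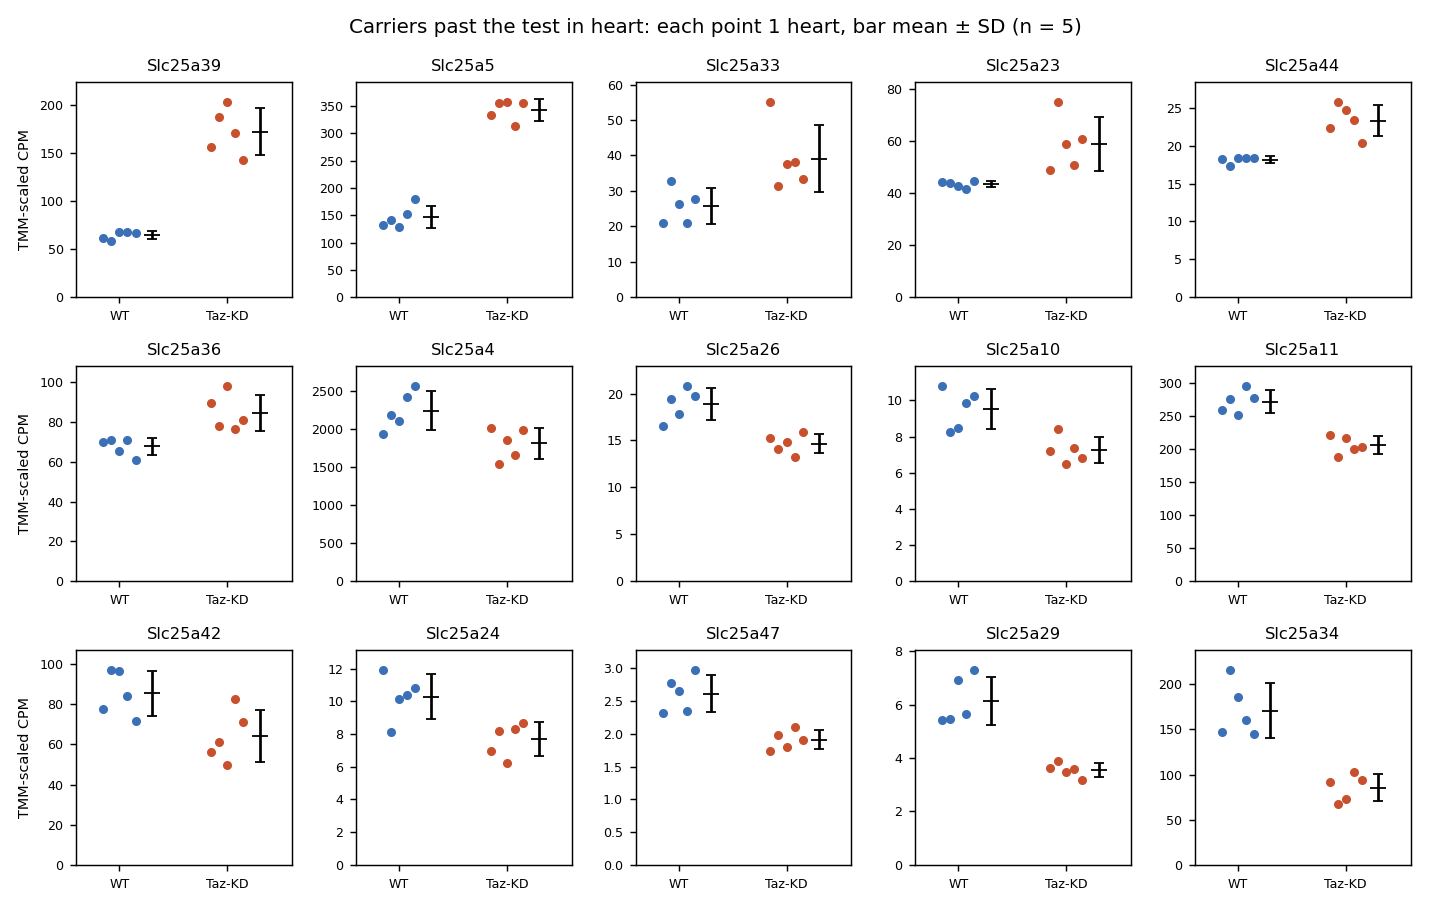
The 15 members past the test in heart, ordered from the largest rise to the largest fall, in TMM-scaled CPM. Each point is 1 heart, and the bar is the mean ± SD of 5 hearts of a genotype. Slc25a39, Slc25a5, Slc25a23, Slc25a44 and Slc25a36 are higher and Slc25a26, Slc25a11, Slc25a47, Slc25a29 and Slc25a34 lower without overlap, while the other 5 overlap.

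None of the iron carriers, the uncoupling-protein-like carriers or the outer membrane member passed in heart. Mitoferrin 2, Slc25a28, measured 14.2 ± 1.19 and 17.5 ± 2.76 CPM (adjusted p = 0.0593), and mitoferrin 1, Slc25a37, 32.1 ± 2.91 and 28.2 ± 1.26 CPM (adjusted p = 0.0721). Their ratio per kilobase was 0.714 ± 0.0497 in WT and 0.992 ± 0.120 in Taz-KD hearts, without overlap. Slc25a14, Slc25a27 and Slc25a30 lay at log2 fold changes of 0.33, 0.34 and 0.06. Slc25a46, which sits in the outer membrane, measured 78.0 ± 4.79 and 81.4 ± 4.95 CPM.

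Some markers of other cells moved with genotype in heart. Of 5 endothelial markers, 3 fell, and the 5 summed to between 694 and 866 CPM in WT and between 569 and 721 CPM in Taz-KD hearts. Of 6 erythroid markers, 5 were tested and 3 fell, and the 6 summed to between 421 and 741 CPM in WT and between 289 and 458 CPM in Taz-KD hearts. No marker of fibroblasts or macrophages passed, nor did any of the 4 adipocyte markers tested. Of the 3 brown adipocyte markers only Cidea was tested, and it rose (log2 fold change 0.66 ± 0.15 SE, adjusted p = 0.00734). Elovl3 and Ucp1 were not tested, and Ucp1 was at most 0.126 CPM in every Taz-KD heart but R1793. The 6 skeletal fibre markers summed to between 1007 and 1436 CPM in WT and between 1562 and 2412 CPM in Taz-KD hearts, without overlap. Of these Acta1, skeletal alpha-actin, rose from a mean of 222 to 783 CPM (log2 fold change 1.82 ± 0.57 SE, adjusted p = 0.0464). Ckm, which made up nearly all the rest of the sum, averaged 1022 and 1042 CPM and did not pass. Tnnt3 (0.674 and 0.554 CPM) and Mylpf (0.409 and 0.489 CPM) did not pass either. Myh1 (0.111 and 0.0187 CPM) and Myh4 (0 counts) were not tested. Of the slow-fibre markers, Tnnt1, the slow skeletal troponin T, fell (log2 fold change -1.28 ± 0.18 SE, adjusted p = 0.000309). No cardiomyocyte marker passed, but Myl7 and Nppa varied widely. Myl7 spanned 0 to 11.7 CPM among WT hearts and 0.218 to 59.7 CPM among Taz-KD hearts (log2 fold change 2.61 ± 1.475 SE, adjusted p = 0.246). Nppa spanned 26.8 to 196 and 79.7 to 427 CPM (log2 fold change 1.29 ± 0.71 SE, adjusted p = 0.235). Myh6, Tnnt2, Actc1 and Tnni3 had log2 fold changes between -0.21 and -0.06. The part of all these markers in the values of the members was not tested. Without the hearts with Ucp1 RNA, R3 and R1793, Slc25a24 (adjusted p = 0.0644) and Slc25a42 (adjusted p = 0.0921) were the calls that were lost.

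Genes that act beside the carriers gave a mixed picture in heart. Of the family proteins under other symbols, the 4 tested, Ucp2, Ucp3, Mtch1 and Mtch2, did not pass. Of 10 carriers of other families, 2 rose and 2 fell. The porins of the outer membrane Vdac3 (log2 fold change 0.64 ± 0.06 SE) and Vdac2 (0.29 ± 0.06) rose, and the subunits of the pyruvate carrier Mpc1 (-0.29 ± 0.08) and Mpc2 (-0.42 ± 0.07) fell. Of 6 enzymes of the malate-aspartate and glycerol phosphate shuttles, Got1, the cytosolic aspartate aminotransferase, rose from 495 ± 38.9 to 840 ± 41.7 CPM, and the other 5 did not pass. Within the malate-aspartate shuttle, then, Got1 rose and Slc25a11 fell, and Slc25a12, Slc25a13, Got2, Mdh1 and Mdh2 did not pass.

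In muscle 40 members passed the filter and 0 changed by edgeR, where 0.0186% of all genes did. At an unadjusted p under 0.05 there were 5 members, below the background of 14.9%, and limma-voom called 0 members. DESeq2 called 1 member, against 0.911% of all genes, and the fit of all 20 libraries called 1 of the members, against 0.81%. Both were Slc25a39. The genotypes did not overlap in muscle for 1 member, Slc25a24, against 2.14% of all genes. The members named next were chosen after their values were seen.

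Slc25a39 measured 44.9, 42.2, 36.8, 37.5 and 44.1 CPM in WT and 61.0, 55.8, 43.0, 57.9 and 67.5 CPM in Taz-KD muscle. All but 1 of the Taz-KD muscles, A52, lay above the WT range, and the log2 fold change was 0.47 ± 0.12 SE (adjusted p = 0.311 by edgeR, 0.0404 by DESeq2 and 0.0437 in the fit of all 20 libraries). Slc25a24 measured 6.01, 5.37, 5.99, 8.16 and 4.73 CPM in WT and 4.11, 3.48, 4.13, 4.69 and 4.65 CPM in Taz-KD muscle. The lowest WT muscle lay just above the highest Taz-KD muscle (log2 fold change -0.52 ± 0.16 SE, adjusted p = 0.311). Slc25a26 measured 19.9 ± 2.71 and 23.1 ± 0.604 CPM (adjusted p = 0.334).

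Slc25a1 and Slc25a10 had the largest log2 fold changes in muscle among these, and their high values stood in muscles with high fat markers. Slc25a1 measured 53.9, 3.88, 11.8, 17.4 and 4.46 CPM in WT mice A33, A40, A51, A55 and A57, and from 2.93 to 8.32 CPM in Taz-KD. Slc25a10 measured 35.3, 5.57, 8.93, 14.6 and 3.66 CPM in the same WT mice, and from 3.75 to 6.45 CPM in Taz-KD. The 3 high muscles, A33, A55 and A51, were those with the most Plin1, the coat protein of fat droplets, at 387, 95.8 and 60.5 CPM, and all 3 were WT. The log2 fold changes were -1.54 ± 0.66 SE for Slc25a1 (adjusted p = 0.328) and -1.47 ± 0.54 SE for Slc25a10 (adjusted p = 0.311). Without these 3 muscles they were 0.59 and 0.09, with 2 WT muscles left.

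**Figure D4:**
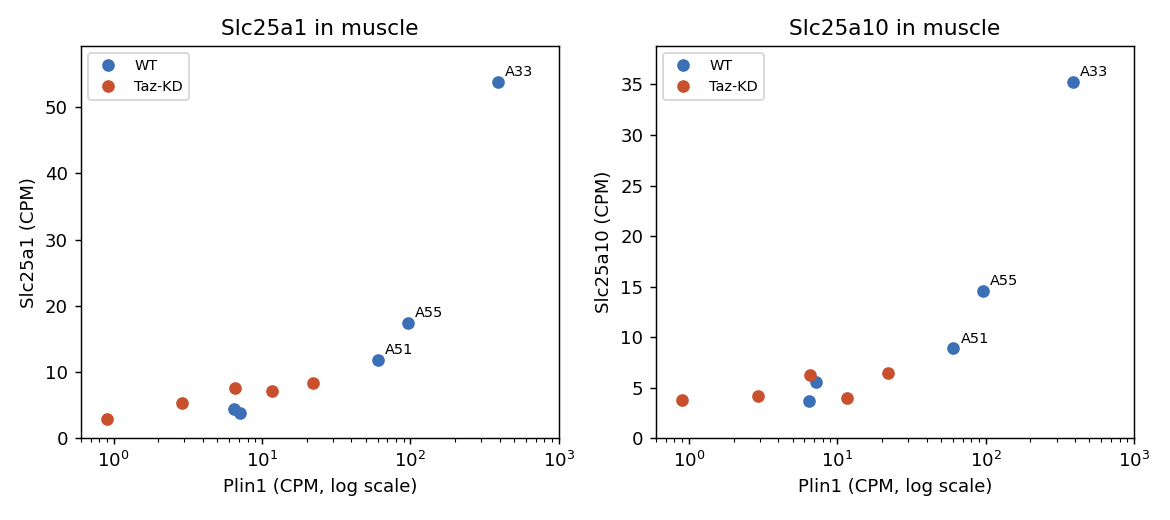
Slc25a1 (left) and Slc25a10 (right) in CPM against Plin1 in CPM on a log axis, with 1 point for each of the 10 muscles, WT in blue and Taz-KD in red. The WT muscles A51, A55 and A33 stand apart at the upper right, with Slc25a1 at 11.8, 17.4 and 53.9 CPM.

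The most abundant members did not pass in muscle. Slc25a4 measured 3242 ± 446 in WT and 3467 ± 231 CPM in Taz-KD, Slc25a3 815 ± 197 and 752 ± 111, Slc25a12 402 ± 79.8 and 473 ± 53.1, and Slc25a5 47.1 ± 12.8 and 45.3 ± 6.96 CPM. Slc25a25, an ATP-Mg/phosphate carrier, spread widely, from 75.0 to 347 CPM among WT muscles and from 194 to 338 CPM among Taz-KD muscles. The NAD carrier Slc25a51 measured 13.3 and 15.3 CPM per kilobase and Slc25a28, mitoferrin 2, 10.1 and 8.90 CPM per kilobase, in WT and Taz-KD, and neither passed. Muscles also differed in slow-fibre markers, which summed to 13405 CPM in A55 and 6758 CPM in A40, both WT, to 2722 CPM in Taz-KD mouse A58 and to between 36.3 and 1481 CPM in the other 7. Slc25a34 was highest in the same 3 muscles, at 38.4 CPM in A55, 36.1 CPM in A58 and 33.6 CPM in A40. Slc25a13, at low levels, was highest there too, at 2.74 CPM in A55, 1.96 CPM in A58 and 1.97 CPM in A40. So was the abundant Slc25a3, at 1040 CPM in A55, 911 CPM in A58 and 1010 CPM in A40. These members were named after their values were seen. The part of fibre type was not tested. Of the classes, none had a called member. The median log2 fold change was 0.09 over the 40 members and -0.02 over all genes tested.

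Whether the genotype difference itself differed between heart and muscle was asked with an interaction term in edgeR, fitted jointly so that the difference need not equal that of the separate values. The fit treated all 20 libraries as separate mice. Of 42 members tested, 6 differed, against 4.62% of all genes. Slc25a5 rose in heart and lay at -0.06 in muscle (muscle minus heart -1.20 ± 0.20 SE on the log2 scale, adjusted p = 0.00128). Slc25a39 differed by -0.88 ± 0.15 SE (adjusted p = 0.00177), with a log2 fold change of 1.42 in heart and 0.47 in muscle, both above 0. The others were members that fell in heart and lay above 0 in muscle, where they did not pass. Their muscle log2 fold changes were 0.29 for Slc25a29 and 0.21 for each of Slc25a26, Slc25a11 and Slc25a42. In muscle 23 of the 40 members tested lay above 0. The difference was 1.16 ± 0.22 SE for Slc25a29 (adjusted p = 0.00479), 0.64 ± 0.15 for Slc25a26 (adjusted p = 0.017), 0.67 ± 0.17 for Slc25a11 (adjusted p = 0.0246) and 0.69 ± 0.19 for Slc25a42 (adjusted p = 0.0466).

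Only Slc25a5 and Slc25a39 kept this call when the hearts with Ucp1 RNA and the muscles with the most fat markers were left out, and the adjusted p was then 0.0619 for Slc25a29, 0.0753 for Slc25a26, 0.21 for Slc25a11 and 0.368 for Slc25a42. The call of Slc25a11 was also lost without R1795 (adjusted p = 0.0537) or R1793 (0.0533). That of Slc25a42 was lost when any 1 of 14 mice was left out, at adjusted p between 0.0517 and 0.0925, which are all but hearts R3, R1800, R1797 and R1798 and muscles A40 and A57. Slc25a34 and Slc25a4 were not shown to differ between tissues (differences of 0.98 ± 0.52 and 0.47 ± 0.20 SE, adjusted p = 0.314 and 0.191). The libraries of the tissues also differed in Rn7sk, an RNA without a poly(A) tail, which measured at least 7989 CPM in every heart and at most 0.492 CPM in every muscle. A difference in library preparation between the tissues was not tested.

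**Figure D5:**
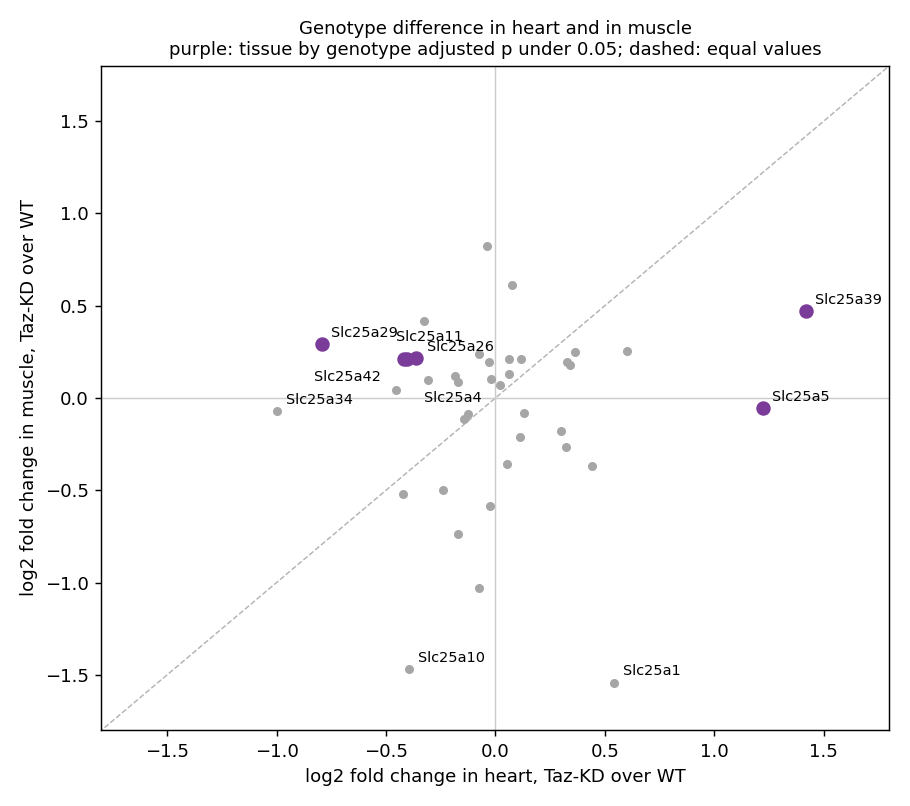
The log2 fold change of Taz-KD over WT in heart (horizontal) and in muscle (vertical) for the 40 members tested in both tissues. Purple members differed between tissues with an adjusted p under 0.05, and the dashed line marks equal values. Slc25a39 and Slc25a5 lie to the right at 1.42 and 1.22, and Slc25a29, Slc25a11, Slc25a26 and Slc25a42 at the upper left.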

How the data were processed

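Per the labels, the authors made dUTP strand-specific libraries from total RNA depleted of ribosomal RNA. They read them as 150 bp pairs, aligned with STAR to GRCm38 (mm10) and used featureCounts 1.6.4. The same protocol was given for both tissues, but their libraries differed in Rn7sk as given above, and whether all were made this way was not tested. The deposited values are unnormalized counts. The annotation release and the strand setting were not given in the sources used here, so reads of members that overlap antisense genes (Slc25a11 with Rnf167 over 8.92% of its exon bases, Slc25a10 with Gm11788 over 6.6%, Slc25a35 with Rangrf over 31.3%) may be shared. Symbols and positions were taken from GENCODE M21.

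The members, classes and lists were chosen with earlier results of these data known. Genes were kept by filterByExpr, scaled with TMM and tested per tissue with edgeR 4.0.16 in R 4.3.3 (robust quasi-likelihood test, Benjamini-Hochberg over all genes kept, 0.05), with SE from the F statistic. The test was checked on simulated counts. Every member past a test was named, as were the 5 highest members per kilobase in WT of each tissue past none. DESeq2 1.42.0, limma-voom (limma 3.58.1), other scaling and filters, 1 fit of all 20 libraries and leaving out each mouse were alternatives. Samples were called separate mice by their labels, and no 2 libraries of a group were alike within sampling noise (chi-square per gene at least 15.1). Proteins were not analysed here, and 1 member is counted but not reported by name.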

Additional observations from a re-analysis of the deposited data

Results flagged for a closer look

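In 5 of 50 groups of 5 mice, examined for the named members, the highest or lowest mouse stood far from the others, and chance gives about 1 in 20. Slc25a1 did so in WT heart R3 (10.4 CPM), Taz-KD heart R1793 (16.6 CPM) and WT muscle A33 (53.9 CPM), the libraries with Ucp1 RNA in heart and with the most adipocyte markers in muscle. Slc25a33 reached 55.1 CPM in Taz-KD heart R2. Slc25a44 was lowest in WT heart R1791, at 17.3 CPM, where the other 4 WT hearts lay within 18.2 to 18.4 CPM.

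The genotype difference itself differed between tissues for 6 members by the interaction test in edgeR, as muscle minus heart on the log2 scale: -1.20 for Slc25a5, -0.88 for Slc25a39, 1.16 for Slc25a29, 0.69 for Slc25a42, 0.67 for Slc25a11 and 0.64 for Slc25a26.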

How the results depend on the processing

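With 1 fit of all 20 libraries, 3 members were higher and 5 lower in heart, and 1 was higher in muscle, as with DESeq2 in muscle (1); the cause was not tested. Leaving out each mouse gave 5 to 9 members lower in heart (5 without R1792). Without hearts R3 and R1793 and muscles A33, A51 and A55, a choice made after seeing the data that leaves 2 WT muscles, 2 members differed between tissues. Without those 3 muscles, the muscle log2 fold change of Slc25a1 became 0.59 and of Slc25a10 0.088. The calls of Slc25a5, Slc25a39, Slc25a11, Slc25a26 and Slc25a29 in heart were kept under all 21 alternatives, and the tissue differences of Slc25a5 and Slc25a39 under all 27. Over all genes, 2804 were higher and 1999 lower in heart, 2445 and 2511 with upper-quartile scaling, and 1372 and 715 with 1 fit of all 20 libraries. In muscle 2 genes were higher and 1 lower, 38 and 107 with DESeq2, and 32 and 135 with 1 fit of all 20. Without muscle A57, 640 genes were higher and 1402 lower between tissues. No paired analysis was possible because the labels give each sample its own number and link no heart to a muscle. The 5 members not tested in heart had at most 20 counts in any heart, so differences in them were not detectable at this depth.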
